A study of Homo sapiens with 12 samples.

Results

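The 9 genes BIRC2, BIRC3, XIAP, CFLAR, FAS, TNFRSF10A, TNFRSF10B, FADD and CASP8 were followed by their symbols through 12 RNA-seq libraries of HK2 cells, an immortalized line of human proximal tubular epithelium. They were 9 of the 58278 genes listed in each library, and all 9 passed the filter on low counts that kept 24342 genes for testing. The rule that picked them uses only their names, which stand for steps of death-receptor signalling. The list itself was chosen with earlier results of these data known. There were 6 groups of 2 replicates. Ctrl cells were untreated, and TN cells received TNF-α, an inflammatory cytokine, at 5 ng/ml for 3 h. PRTN and BUTN cells were first given a short-chain fatty acid (SCFA) for 24 h, propionate at 15 mM in PRTN and butyrate at 3 mM in BUTN, and then that dose of TNF-α, and TNPR and TNBU cells received the same agents with TNF-α first. All 5 treated groups therefore carried TNF-α, and a group given an SCFA without TNF-α, or TNF-α alone over the longer schedule, was not analysed here. The effect of an SCFA and of the time spent in culture cannot be told apart in comparisons of the 4 SCFA groups with TN or Ctrl. Thapsigargin and JQ1 appear in the general treatment text deposited with the samples, but the labels of single libraries give TNF-α and an SCFA, and those labels were followed. All libraries come from the same cell line, p-values measure the spread between libraries, and in bulk RNA fewer expressing cells and less RNA per cell cannot be told apart.

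Death receptors carry signals for apoptosis from the cell surface. FAS and the TRAIL receptors TNFRSF10A (DR4) and TNFRSF10B (DR5) recruit the adaptor FADD, which in turn binds and activates CASP8, the initiator protease that cleaves executioner caspases and BID. CFLAR encodes c-FLIP, a relative of CASP8 that enters the same complex and limits its activation. The inhibitor of apoptosis proteins (IAPs) act at other points: BIRC2 (cIAP1) and BIRC3 (cIAP2) are ubiquitin ligases of the TNF receptor complex, where they sustain NF-κB signalling and hold back cell death, while XIAP binds and blocks active caspases. BIRC3 and CFLAR are long-known targets of NF-κB, the transcription factor that TNF-α activates, and in many cell types TNF-α kills mainly where such inhibitors are lost.

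Because the description turns on BIRC3 and CFLAR, which parted after SCFA treatment, the 250 bases before a transcription start of each are shown, with those of BIRC2, the neighbouring paralog of BIRC3, for comparison. The sequences are from RefSeq on GRCh38.p14, each on the plus strand and read 5′ to 3′. Capitals mark the letters of the NF-κB motif GGGNNNTTCC, searched on both strands, so that its reverse complement GGAANNNCCC also counts.
BIRC3, chr11:102317234-102317483: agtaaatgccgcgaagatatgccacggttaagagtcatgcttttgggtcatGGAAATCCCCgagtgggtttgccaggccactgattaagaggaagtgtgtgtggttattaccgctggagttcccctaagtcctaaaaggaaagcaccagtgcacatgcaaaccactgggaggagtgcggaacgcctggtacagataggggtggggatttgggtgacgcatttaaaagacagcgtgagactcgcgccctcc
CFLAR, chr2:201118466-201118715: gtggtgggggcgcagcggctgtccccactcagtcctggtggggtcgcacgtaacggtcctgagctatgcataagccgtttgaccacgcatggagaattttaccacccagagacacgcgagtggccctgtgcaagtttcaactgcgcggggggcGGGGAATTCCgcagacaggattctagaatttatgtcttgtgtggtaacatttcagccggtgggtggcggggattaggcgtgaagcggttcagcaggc
BIRC2, chr11:102346964-102347213: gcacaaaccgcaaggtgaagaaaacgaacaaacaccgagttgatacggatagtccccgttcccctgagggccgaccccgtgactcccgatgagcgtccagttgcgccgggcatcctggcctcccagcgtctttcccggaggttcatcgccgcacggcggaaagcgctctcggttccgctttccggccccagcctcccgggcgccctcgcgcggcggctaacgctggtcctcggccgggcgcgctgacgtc
The BIRC3 window held GGAAATCCCC, a match on the opposite strand that begins 199 bases before the start site. The CFLAR window held GGGGAATTCC, on the same strand as the gene and 97 bases before the start site, and the BIRC2 window held no match. The promoter table had entries for 7 of the 9 genes, with 17 windows in all, and the other 15 windows had no match; TNFRSF10A and TNFRSF10B had no entry. Of all 35116 windows of the same length in the table, 1992 (5.67%) held the motif, or 1875 of 27305 genes (6.87%). A match describes these letters and shows neither binding nor a cause.

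Several of the 9 genes are neighbours. On GRCh38 (GENCODE 44), BIRC3 (ENSG00000023445) spans positions 102317484 to 102339403 of chromosome 11 and ends 7807 bases before BIRC2 (ENSG00000110330, 102347211 to 102378670), both on the plus strand. CFLAR (ENSG00000003402) lies at 201116154 to 201176687 of chromosome 2, and CASP8 (ENSG00000064012) at 201233443 to 201361836, with CASP10 between them, 6184 bases from CFLAR and 4014 from CASP8. TNFRSF10A and TNFRSF10B stand on chromosome 8 in a cluster with the decoy receptors TNFRSF10C and TNFRSF10D. FAS is on chromosome 10, XIAP on chromosome X, and FADD at 70203296 to 70207390 of chromosome 11.

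The libraries held 27269986 to 33851130 expected counts each, and mitochondrial genes took 5.86% to 9.46% of them. Replicates lay furthest apart in TNPR and TNBU (median absolute log2 difference over genes 0.190 and 0.217, against 0.1104 to 0.146 in the other groups). The kidney epithelial markers PAX8, GGT1, KRT8 and KRT18 were all present, at 59.95 CPM (counts scaled to a common library size) or more in every library, whereas ANPEP, LRP2, PAX2 and SLC34A1, markers of the mature proximal tubule or its precursor, were at 0.127 CPM or less on average in Ctrl and TN. From TN to the SCFA groups, mean PAX8 fell from 403 to between 131 and 158 CPM. GGT1 fell from 194 to between 63.9 and 72.4 CPM. KRT8 rose from 725 to between 1086 and 1425 CPM, and KRT18 from 355 to between 565 and 723 CPM. Mean ANPEP, LRP2 and PAX2 stood at 0.447 to 2.10 CPM in the SCFA groups, and SLC34A1 at 0.0746 CPM or less. The summed level of 5 leukocyte markers was 1.04 to 1.08 CPM in Ctrl and TN and 2.55 to 4.20 CPM in the SCFA groups, mostly CD14, with PTPRC and CD3E at 0.152 CPM or less. The sum of 3 endothelial markers was 0.143 to 0.287 CPM in Ctrl and TN and 2.18 to 3.61 CPM in the SCFA groups. Their part in the results below was not tested. Levels below are CPM after TMM scaling, and a gene was called higher or lower when the fold change was over 1.5 and the adjusted p of limma-voom over the 24342 genes was under 0.05.

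**Figure D1:**
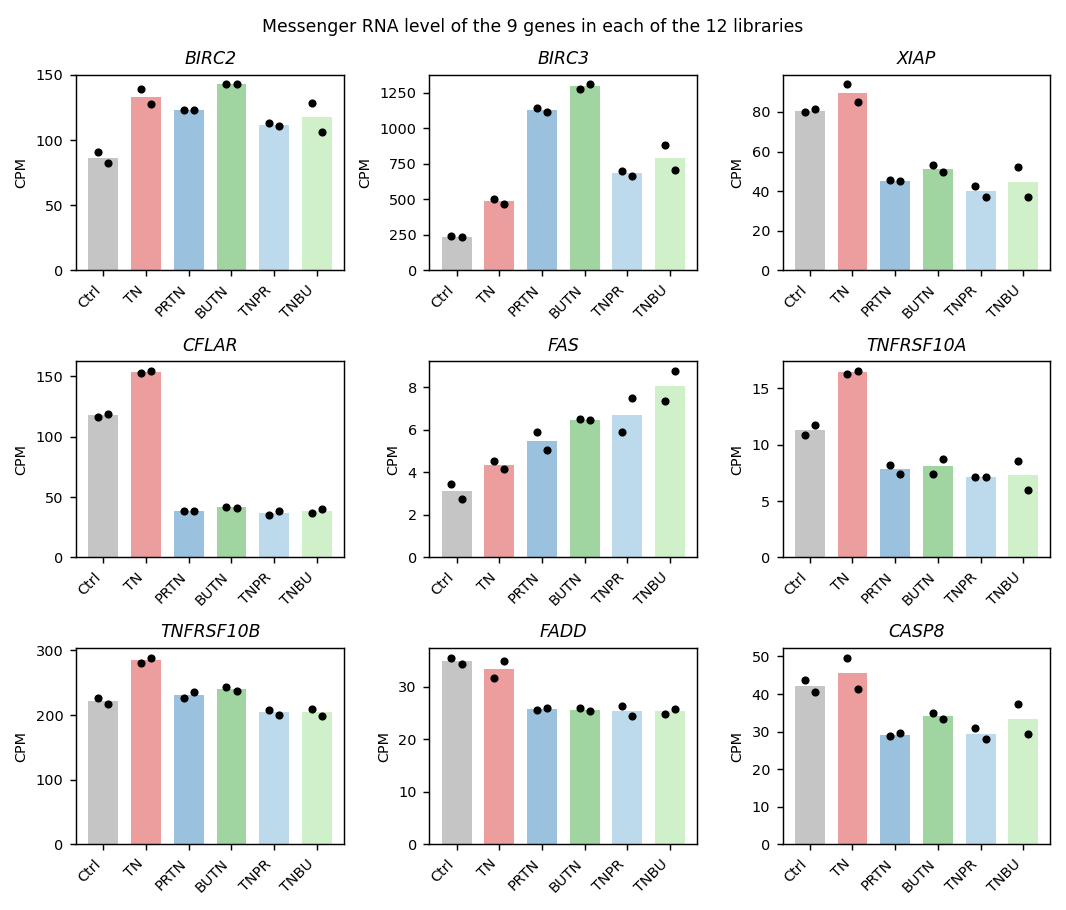
Level (CPM, linear axes from 0) of each of the 9 genes in the 6 groups; points are the 2 libraries and bars their mean. BIRC3 stood highest in PRTN and BUTN (1119 to 1314 CPM), and CFLAR lay between 34.9 and 41.8 CPM in every SCFA library against 116 CPM or more in Ctrl and TN.

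With TNF-α alone, both cIAP genes were called higher and no other of the 9 passed both thresholds. In TN vs Ctrl, 2 of the 9 genes were called higher, BIRC3 and BIRC2, and 0 lower, where 0.764% of all tested genes were called higher and 0.534% lower. By edgeR and DESeq2 the count was also 2, and at an unadjusted p under 0.05 limma-voom gave 6 genes higher and 0 lower, where 8.71% and 8.3% of all genes passed. CFLAR, TNFRSF10A and TNFRSF10B passed the adjusted p but not the fold of 1.5, with log2 fold changes of 0.39, 0.54 and 0.36. The middle value among the 9 log2 fold changes was 0.39, where the median over all tested genes was -0.01.

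After SCFA treatment the inhibitors split. Compared with TN, XIAP, CFLAR and TNFRSF10A fell in all 4 SCFA groups, CASP8 fell in PRTN and TNPR, BIRC3 rose in PRTN, BUTN and TNBU, and FAS rose in TNPR and TNBU. Falls in all 4 groups were common among all genes, at 11.9%, so 3 of 9 is to be read against that share, and 0 of the 9 rose in all 4, where 18.4% of all genes did. In PRTN vs TN, 1 gene was called higher and 4 lower, with 23.9% and 16.7% of all genes so called. In BUTN vs TN, 1 was higher and 3 lower (all genes 23.1% and 14.8%). In TNPR vs TN, 1 was higher and 4 lower (24.9% and 16.9%). In TNBU vs TN, 2 were higher and 3 lower (25% and 16.5%). The medians of the 9 log2 fold changes against TN were -0.37 for PRTN, -0.38 for BUTN, -0.48 for TNPR and -0.45 for TNBU, where the medians of all tested genes were between 0.08 and 0.12. With library size alone as scaling, the median of all genes moved up by a further 0.153 to 0.196 in these contrasts, and the higher share of all calls went from 60.9% to 71.2% in BUTN vs TN, from 59.6% to 69.8% in TNPR vs TN and from 60.2% to 72.0% in TNBU vs TN; in TN vs Ctrl it went from 58.9% to 44.3%.

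Against Ctrl, XIAP and CFLAR were lower and BIRC3 and FAS higher in all 4 SCFA groups. In PRTN vs Ctrl, 2 of the 9 were higher and 2 lower (all genes 22.6% and 16.9%). In BUTN vs Ctrl, 3 were higher, with BIRC2 as the added gene, and 2 lower (22% and 14.9%). In TNPR vs Ctrl, 2 were higher and 3 lower (23.6% and 16.8%), and in TNBU vs Ctrl the counts were again 2 and 3 (23.6% and 16.5%), with TNFRSF10A as the added fall in both. The comparisons with TN and with Ctrl share the SCFA libraries and are not independent of each other.

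**Figure D2:**
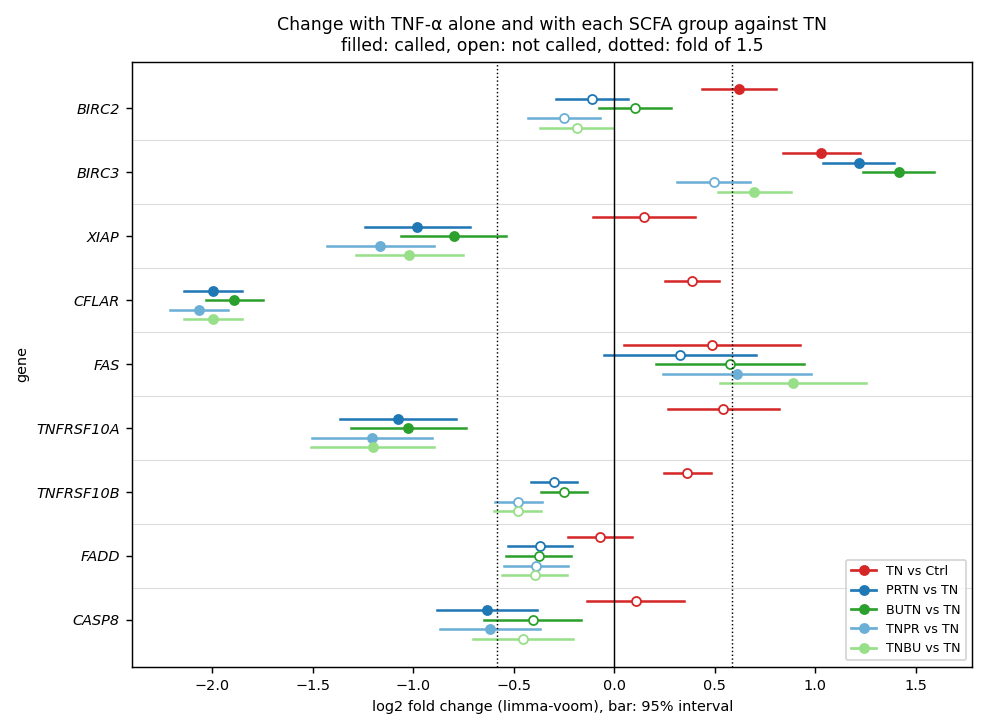
Log2 fold change of each gene by limma-voom (points, filled where called) with its 95% interval (bars), for TN vs Ctrl and for each SCFA group against TN; dotted lines mark a fold of 1.5. CFLAR lies near -2 in all 4 SCFA groups, and BIRC3 is the only gene to the right of the dotted line in TN vs Ctrl, PRTN vs TN and BUTN vs TN alike.

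BIRC3 was the gene of the 9 that rose most in TN vs Ctrl, in PRTN and BUTN vs TN and in all 4 SCFA groups vs Ctrl, while in TNPR and TNBU vs TN the value of FAS was higher. Its level was 240 and 236 CPM in Ctrl, 504 and 469 CPM in TN, 1141 and 1119 CPM in PRTN, 1281 and 1314 CPM in BUTN, 702 and 668 CPM in TNPR, and 881 and 707 CPM in TNBU. No library of a treated group overlapped Ctrl, and the 4 libraries with the SCFA added before TNF-α lay above all others. TNF-α alone raised BIRC3 by 1.03 on the log2 scale (SE 0.0883, adjusted p 4.88e-05 by limma-voom), and PRTN and BUTN stood a further 1.22 (SE 0.0813, adjusted p 8.56e-08) and 1.42 (SE 0.0809, adjusted p 3.11e-08) above TN. In TNBU vs TN the log2 fold change was 0.70 (SE 0.0830, adjusted p 1.31e-05), which fell to 0.50, under the fold threshold, without TNBU replicate 1. In TNPR vs TN it was 0.50 (SE 0.0832, adjusted p 0.000229), a fold of 1.41 that was not called, but was called with library size alone (0.67, adjusted p 1.45e-05). Of the 186 genes that TNF-α raised, 14 were called higher than TN in all 4 SCFA groups, and BIRC3 was not among them for want of the call in TNPR.

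BIRC3 was also the gene of the 9 that was called between the orders of the agents. It was lower in TNPR than in PRTN by limma-voom (log2 fold change -0.72, SE 0.0792, adjusted p 0.00273) and lower in TNBU than in BUTN (-0.72, SE 0.0786, adjusted p 0.00207). Among all genes, 0.16% were called in either direction in TNPR vs PRTN and 0.267% in TNBU vs BUTN, and 1 of the 9 was called in each by limma-voom, edgeR and DESeq2. Without PRTN replicate 1 the adjusted p of TNPR vs PRTN was 0.0553 at -0.73, and without TNBU replicate 2 the log2 fold change of TNBU vs BUTN was -0.56, under the fold threshold. The schedules differ in both the order of the agents and the time from TNF-α to harvest, which cannot be told apart.

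BIRC2, the paralog next to BIRC3, was called higher with TNF-α alone and in no SCFA group against TN. It stood at 90.8 and 82.4 CPM in Ctrl, 139 and 128 CPM in TN, 123.3 and 122.8 CPM in PRTN, 143 and 143 CPM in BUTN, 113 and 110 CPM in TNPR, and 129 and 106 CPM in TNBU. Every treated library exceeded both Ctrl libraries, while the SCFA libraries lay around those of TN. The rise in TN vs Ctrl was 0.62 on the log2 scale (SE 0.0852, adjusted p 0.00156 by limma-voom), close to the threshold: it was 0.55 without Ctrl replicate 2 and 0.56 without TN replicate 1, both uncalled. Against TN it was not called in any SCFA group, with log2 fold changes of -0.11 (PRTN), 0.10 (BUTN), -0.25 (TNPR) and -0.19 (TNBU); with library size alone the values for PRTN and TNBU turned positive (0.043 and 0.0093). BUTN vs Ctrl was called (0.72, SE 0.0840, adjusted p 1.20e-05).

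The count of BIRC3 relative to BIRC2, which needs no scaling between libraries, was 2.65 and 2.86 in the Ctrl libraries and 3.63 and 3.68 in those of TN. With the SCFA first it was 9.26 and 9.11 (PRTN) and 8.96 and 9.20 (BUTN), and with TNF-α first 6.20 and 6.05 (TNPR) and 6.84 and 6.64 (TNBU). The replicates of a group differed little, and the 3 levels, of the groups without an SCFA, with the SCFA second and with the SCFA first, did not overlap. The ratio shows unequal change of the paralogs in each library and is not per transcript length.

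**Figure D3:**
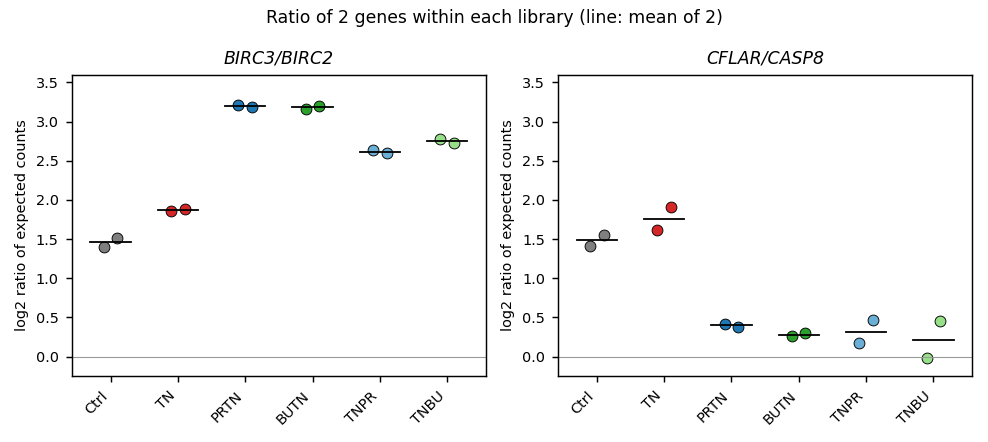
Log2 ratio of the expected counts of BIRC3 to BIRC2 (left) and of CFLAR to CASP8 (right) in each library (points), with the mean of the 2 libraries (line). The BIRC3/BIRC2 means go from 1.46 in Ctrl to 3.20 in PRTN, and the CFLAR/CASP8 means from 1.48 in Ctrl and 1.76 in TN to between 0.218 and 0.399 in the SCFA groups.

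XIAP, the IAP that inhibits caspases directly, fell after both SCFAs and at both orders. Its level was 79.7 and 81.7 CPM in Ctrl and 94.1 and 85.01 CPM in TN. It was 45.6 and 45.05 CPM in PRTN, 53.2 and 49.7 CPM in BUTN, 42.6 and 37.2 CPM in TNPR, and 52.4 and 37.2 CPM in TNBU. All 8 SCFA libraries lay below all 4 others. The log2 fold changes against TN by limma-voom were -0.98 (SE 0.121, adjusted p 1.73e-05) in PRTN, -0.80 (SE 0.119, adjusted p 0.000101) in BUTN, -1.17 (SE 0.122, adjusted p 4.10e-06) in TNPR and -1.02 (SE 0.122, adjusted p 1.41e-05) in TNBU. In BUTN vs Ctrl the fall was -0.65 and became -0.55, under the fold threshold, with library size alone. TNF-α alone gave 0.15 (SE 0.117, adjusted p 0.593). Its pseudogenes XIAPP1, XIAPP2 and XIAPP3 held at most 2.61 counts in a library.

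CFLAR fell furthest of the 9. It stood at 116 and 119 CPM in Ctrl and at 153 and 155 CPM in TN. The SCFA libraries held 38.3 and 38.6 CPM in PRTN, 41.8 and 41.1 CPM in BUTN, 34.9 and 38.7 CPM in TNPR, and 36.8 and 40.3 CPM in TNBU. The range over the 8 SCFA libraries was narrow and lay far under Ctrl and TN. The log2 fold changes against TN by limma-voom were -1.998 (SE 0.0655, adjusted p 4.03e-10) in PRTN, -1.89 (SE 0.0651, adjusted p 8.89e-10) in BUTN, -2.07 (SE 0.0661, adjusted p 4.13e-10) in TNPR and -1.996 (SE 0.0665, adjusted p 6.23e-10) in TNBU, falls of 3.71-fold to 4.18-fold. Between 96.8% and 97.2% of the tested genes had a higher log2 fold change than CFLAR in each of these contrasts. Against Ctrl the falls ran from -1.504 in BUTN to -1.68 in TNPR, and all were called. In TN vs Ctrl the value was 0.39 (SE 0.0608, adjusted p 0.00391), a fold of 1.31 and not a call. CFLAR overlaps the antisense gene CFLAR-AS1, which held 25.6 to 131 counts a library, and how the counting used strand is not given in the sources used here.

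FAS, the receptor of FAS ligand, was low throughout and rose with SCFA treatment. It was at 3.43 and 2.76 CPM in Ctrl, 4.51 and 4.16 CPM in TN, 5.88 and 5.02 CPM in PRTN, 6.48 and 6.44 CPM in BUTN, 5.90 and 7.49 CPM in TNPR, and 7.36 and 8.77 CPM in TNBU. Every SCFA library exceeded every TN and Ctrl library. Against Ctrl the limma-voom log2 fold changes were 0.81 (SE 0.188, adjusted p 0.00257) in PRTN, 1.06 (SE 0.184, adjusted p 0.000335) in BUTN, 1.10 (SE 0.183, adjusted p 0.000228) in TNPR and 1.38 (SE 0.181, adjusted p 3.24e-05) in TNBU. Against TN, TNBU was called (0.89, SE 0.167, adjusted p 0.000546), and so was TNPR (0.61, SE 0.169, adjusted p 0.00780), though not under 9 of 20 alternatives: without TNPR replicate 2 it was 0.39 (adjusted p 0.0932) and without TN replicate 2 it was 0.52 (adjusted p 0.0723). Leaving out TNBU, PRTN or BUTN libraries moved it to 0.56, just under the fold threshold. BUTN vs TN was 0.57 and not called, but called without TN replicate 1 (0.60), by DESeq2 (0.59, adjusted p 0.0247), with relative log expression size factors (0.59) and with library size alone (0.73), and PRTN vs TN was 0.33. In the annotation FAS shares bases with STAMBPL1 on its own strand and with ACTA2 on the other.

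TNFRSF10A (DR4) fell with the SCFAs, and its 0.54 in TN vs Ctrl (adjusted p 0.0368 by limma-voom) was under the fold threshold. Its level was 10.8 and 11.7 CPM in Ctrl and 16.3 and 16.6 CPM in TN. It was 8.18 and 7.42 CPM in PRTN, 7.42 and 8.73 CPM in BUTN, 7.11 and 7.12 CPM in TNPR, and 8.55 and 5.99 CPM in TNBU. The 8 SCFA libraries lay below Ctrl and TN without overlap. Against TN the limma-voom log2 fold changes were -1.07 (SE 0.133, adjusted p 1.79e-05) in PRTN, -1.02 (SE 0.132, adjusted p 2.93e-05) in BUTN, -1.21 (SE 0.137, adjusted p 8.05e-06) in TNPR and -1.20 (SE 0.140, adjusted p 1.10e-05) in TNBU. Against Ctrl TNPR (-0.66, adjusted p 0.00163) and TNBU (-0.66, adjusted p 0.00201) were called by limma-voom. Both were uncalled with library size alone (-0.55 in TNPR and -0.52 in TNBU), and TNBU was -0.41 and uncalled without TNBU replicate 2. PRTN vs Ctrl (-0.53) was uncalled, but called without Ctrl replicate 1 (-0.59) or PRTN replicate 1 (-0.62), and BUTN vs Ctrl (-0.48) was called without BUTN replicate 2 (-0.60).

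TNFRSF10B (DR5), the other TRAIL receptor, was the most abundant of the 9 per length in Ctrl and was called in no comparison. It stood at 226 and 217 CPM in Ctrl, 281 and 289 CPM in TN, 227 and 235 CPM in PRTN, 243 and 237 CPM in BUTN, 208 and 201 CPM in TNPR, and 209 and 199 CPM in TNBU. Both TN libraries were above all others. By limma-voom it was 0.36 higher in TN than in Ctrl on the log2 scale (SE 0.0533, adjusted p 0.00240) and lower in the SCFA groups than in TN (-0.25 to -0.48), with adjusted p of 0.00141 or less and folds under 1.5. Against Ctrl the log2 fold changes were 0.06 (PRTN), 0.11 (BUTN), -0.11 (TNPR) and -0.12 (TNBU), and the values for TNPR and TNBU turned positive with library size alone. DR4 and DR5 thus differed in size of change: 2.03-fold to 2.31-fold falls in the SCFA groups for TNFRSF10A, and folds under 1.5 for TNFRSF10B; the difference between the genes was not tested.

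FADD, the adaptor shared by the death receptors, was called in no comparison and varied little among the SCFA libraries. It was at 35.6 and 34.5 CPM in Ctrl, 31.8 and 35.0 CPM in TN, 25.62 and 25.997 CPM in PRTN, 25.96 and 25.43 CPM in BUTN, 26.4 and 24.5 CPM in TNPR, and 24.8 and 25.8 CPM in TNBU. The TN and Ctrl libraries overlapped, and all SCFA libraries were below them. The limma-voom log2 fold changes against TN lay between -0.37 and -0.40, with adjusted p of 0.000856 or less, and none reached the fold of 1.5.

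CASP8, the initiator caspase, was lower in the SCFA groups. Its level was 43.7 and 40.4 CPM in Ctrl, 49.7 and 41.3 CPM in TN, 28.7 and 29.7 CPM in PRTN, 35.0 and 33.4 CPM in BUTN, 30.9 and 28.1 CPM in TNPR, and 37.3 and 29.3 CPM in TNBU. TN overlapped Ctrl, and every SCFA library lay below both. The limma-voom log2 fold change against TN was -0.63 (SE 0.113, adjusted p 0.000393) in PRTN and -0.62 (SE 0.114, adjusted p 0.000465) in TNPR, both called, and -0.41 (adjusted p 0.00794) in BUTN and -0.45 (adjusted p 0.00421) in TNBU, both uncalled. The calls were near the threshold: without TN replicate 1 PRTN gave -0.53 and TNPR -0.51, both uncalled. With library size alone PRTN gave -0.48 and TNPR -0.44, again uncalled. TNBU was called without TN replicate 2 (-0.61) or without TNBU replicate 1 (-0.66). TNPR vs Ctrl (-0.51) was uncalled, and called without TNPR replicate 1 (-0.61).

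The count of CFLAR relative to CASP8, the inhibitor against the protease it restrains, was 2.67 and 2.94 in Ctrl and 3.07 and 3.75 in TN. With an SCFA it was 1.33 and 1.30 (PRTN), 1.20 and 1.23 (BUTN), 1.13 and 1.38 (TNPR), and 0.985 and 1.37 (TNBU). The 8 SCFA libraries were all below the other 4, a difference that no scaling between libraries can change. This ratio too is not per transcript length, so it does not compare numbers of transcripts. Per kilobase of a reference transcript (MANE Select), the mean in Ctrl was 8.05 CPM for CFLAR and 15.8 CPM for CASP8. With 2 libraries a group, an exact permutation test of a single pair of groups could not pass the threshold, and no test is given.

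Propionate at 15 mM and butyrate at 3 mM were compared side by side at each order, at doses that differ. Of the 9 genes, 0 were called in PRTN vs BUTN and 0 in TNPR vs TNBU by limma-voom, edgeR and DESeq2 alike, where 0.168% and 0.00822% of all genes were called. At an unadjusted p under 0.05, 2 genes (BIRC2 and BIRC3, both lower in PRTN) passed in PRTN vs BUTN, and 1 (BIRC3, lower in TNPR) in TNPR vs TNBU, where 7.43% and 4.08% of all genes passed in that direction. The log2 difference in BIRC3 was -0.20 (95% interval -0.37 to -0.03) in PRTN vs BUTN and -0.20 (-0.38 to -0.03) in TNPR vs TNBU. For CFLAR it was -0.11 (-0.26 to 0.05) and -0.07 (-0.23 to 0.09). For FAS, with few counts, the intervals were wide, -0.58 to 0.08 and -0.59 to 0.03.

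Per kilobase of the MANE Select transcript of GENCODE 44, the mean level in Ctrl was 55.4 CPM for TNFRSF10B, 34.6 CPM for BIRC3, 23.0 CPM for BIRC2, 20.5 CPM for FADD, 15.8 CPM for CASP8, 9.43 CPM for XIAP, 8.05 CPM for CFLAR, 4.20 CPM for TNFRSF10A and 0.838 CPM for FAS. The transcript used by these cells may be shorter, which would raise the value of CFLAR most, since its MANE transcript is 14612 bases long. In PRTN the level of BIRC3 per kilobase was 164 CPM, above the 57.8 CPM of TNFRSF10B.

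Of 44 other genes of the pathway, 40 could be tested, and CASP14, TNFRSF11B, RIPK3 and XAF1 had too few counts. TNF-α alone raised 2 of the 40 and lowered 0. They were TNFAIP3 (A20), an inhibitor of NF-κB signalling and itself an NF-κB target, with a log2 fold change of 2.15 (SE 0.0561, adjusted p 1.25e-09 by limma-voom), and BID, a substrate of CASP8, with 0.59 (SE 0.0766, adjusted p 0.00113). The call of BID was at the threshold, and BID fell below it without Ctrl replicate 1 (0.55) or TN replicate 2 (0.50). Against TN, 5 genes were higher and 10 lower for PRTN, 4 and 8 for BUTN, 5 and 11 for TNPR, and 5 and 10 for TNBU. Of all tested genes 23.1% to 25% were called higher and 14.8% to 16.9% lower in these contrasts. The medians over the 40 genes were between -0.11 and -0.20, where the medians of all genes were between 0.08 and 0.12. By list, 1 to 3 of 9 caspase genes were higher and 1 to 3 lower in a group, with medians of 0.10 to 0.20 on the log2 scale, and 1 of 6 IAP relatives and antagonists was higher and 2 lower in each. Of 5 ligand and decoy genes 0 to 2 were higher and 1 lower, and of 12 genes of the receptor complex and necroptosis 0 to 1 were higher and 3 to 4 lower. Of 8 genes of the mitochondrial arm and its substrates 0 were higher and 1, BID, was lower. Some of the higher calls in these lists rest on few counts. FASLG and CASP5, named here for that reason, held 0 counts in both TN libraries. The called FASLG groups held 2 and 3 counts in PRTN and 4 and 8 in BUTN. CASP5, called in BUTN and TNPR among others, held 4 and 6.06 counts in BUTN and 4.04 and 3.02 in TNPR.

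TNFSF10 (TRAIL), the ligand of TNFRSF10A and TNFRSF10B, fell in all 4 SCFA groups. It stood at 383 to 422 CPM in Ctrl, 652 to 657 CPM in TN, 34.7 to 35.2 CPM in PRTN, 48.8 to 51.9 CPM in BUTN, 19.1 to 44.8 CPM in TNPR and 21.3 to 32.2 CPM in TNBU. The limma-voom log2 fold changes against TN were -4.23, -3.70, -4.47 and -4.65 in PRTN, BUTN, TNPR and TNBU, with adjusted p of 5.73e-08 or less. In TN vs Ctrl the 0.70 (adjusted p 0.0811 by limma-voom) was not called in the main fit. It was called with all 12 libraries when the filter was relaxed to a count of 1 in 1 library (0.70, adjusted p 0.0142). Only the Ctrl and TN libraries (0.72, adjusted p 0.0474) or the fit of Ctrl, TN, PRTN and BUTN (0.72, adjusted p 9.34e-06) also gave the call. So did leaving out any one of the 4 TNPR and TNBU libraries (0.72). Of the decoy receptors next to DR4 and DR5, TNFRSF10D was called higher in PRTN vs TN (0.59, adjusted p 0.000230) and not in the other 3, a call lost under most alternatives at values of 0.52 to 0.58, and TNFRSF10C reached at most 1.51 CPM in a library and was not called against TN (-0.33 to -0.53), but was called lower than Ctrl in all 4 SCFA groups (-0.87 to -1.08, adjusted p 0.00625 to 0.0145). CASP10, the paralog of CASP8 between CFLAR and CASP8, was at 22.1 to 32.4 CPM over the 12 libraries and was not called in any of these contrasts, so the fall of its neighbours on both sides was not shared by a call there. Its log2 fold changes of -0.08 in PRTN and -0.14 in TNBU turned positive with library size alone.

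**Figure D4:**
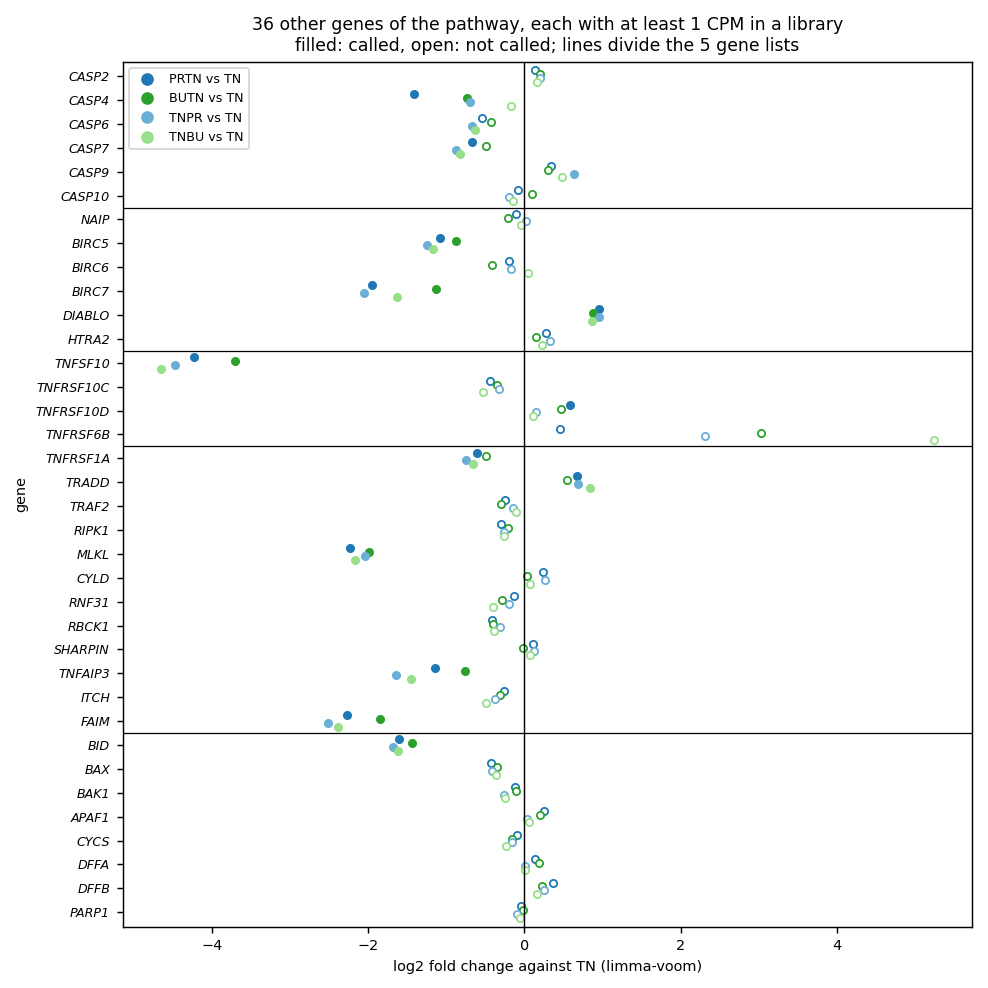
Log2 fold change against TN by limma-voom of 36 other pathway genes that each reach 1 CPM in a library (not every such gene is drawn); each gene has a point per SCFA group, filled where called, and lines divide the gene lists (caspases, IAP family and antagonists, ligands and decoys, receptor complex and necroptosis, mitochondrial arm and substrates). TNFSF10 lies furthest left among the filled points (-3.70 to -4.65), and DIABLO is filled to the right in all 4 groups.

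Downstream of CASP8, its substrate BID fell from 84.5 to 95.02 CPM in TN to between 26.7 and 33.1 CPM in the SCFA groups (log2 fold changes -1.44 to -1.68, largest adjusted p 2.45e-08 by limma-voom). Among relatives of the IAPs, BIRC5 (survivin), which also serves in cell division, fell by 0.87 to 1.25, and BIRC7 (livin) by 1.13 to 2.05. DIABLO (SMAC), the mitochondrial protein that displaces caspases from IAPs, rose by 0.86 to 0.96 in all 4 groups, and is named after its values were seen.

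In the receptor complex, TNFAIP3 was lower than TN in all 4 SCFA groups (-0.77 to -1.65), although it stood at 153 to 288 CPM there against 109 to 112 CPM in Ctrl. BIRC3, the other NF-κB target called in TN vs Ctrl, was above both TN libraries in all 8 SCFA libraries. MLKL, the effector of necroptosis, fell from 25.2 to 26.5 CPM in TN to between 5.17 and 7.01 CPM (-1.99 to -2.24). FAIM, an inhibitor of FAS-induced apoptosis, fell from 12.7 to 13.9 CPM to between 2.16 and 3.90 CPM (-1.84 to -2.51).

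Among 15959 genes with at least 1 CPM in their highest group, those most like BIRC3 and CFLAR were found by the root mean square difference of the 6 centred group means of log2 CPM. For BIRC3 they were SDC4 (0.0528), IL1A (0.150) and CD83 (0.186), which like it rose from Ctrl through TN to PRTN and BUTN and were lower in TNPR and TNBU. For CFLAR they were XBP1 (0.0665), DSC3 (0.0724) and RBM3 (0.0759), which like it were high in Ctrl and TN and low in the other 4 groups. The likeness rests on 6 group means and is a description.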

How the data were processed

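RNA of HK2 cells was sequenced in 12 libraries. The authors aligned reads with STAR (2.6.1a in the submitters' processing notes) to GRCh38 and estimated counts with RSEM on GENCODE 26. The deposited files hold expected counts for each gene, not scaled or filtered, and 19.3% are not whole numbers. RSEM divides reads between near-identical genes. The RSEM version and strand setting are not given in the sources used here. Groups were taken from the library labels.

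Counts were tested unrounded with limma 3.58.1 (voom, a mean for each of 6 groups, 12 libraries in a single fit) in R 4.3.3, with TMM factors from edgeR 4.0.16 (0.913 to 1.06). Genes were kept where the geometric mean of the count plus 1, minus 1, was at least 1 (24342 of 58278). Calls needed a fold over 1.5 and a Benjamini-Hochberg adjusted p under 0.05 over these genes. CPM was scaled with the TMM factors, and intervals are at 95%. In a test on simulated counts of TN vs Ctrl with 200 of 24342 genes changed, 87% of 2-fold and 97% of 4-fold changes were called, with 2 false calls. The changed genes were picked above a minimum count, and the spread was set beforehand, by the same rule in all groups. These rates therefore do not carry over to genes of few counts or to the SCFA contrasts. A count of 3 stood at 0.0867 to 0.112 CPM over the libraries, which covers counting error only. No replicate pair was as close as sampling noise.

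The 9 genes, the 44 pathway genes and the marker lists were chosen with earlier results of these data known. All 9 were named. Pathway genes were named where called in TN vs Ctrl, where called in the same direction against TN in all 4 SCFA groups with a median absolute log2 fold change over 1, or as neighbours or ligand of the 9 (CASP10, TNFRSF10C, TNFRSF10D, TNFSF10). Some results for single genes that this rule or the marker lists cover are not reported here. In the likeness ranking, genes without an established name were passed over. Alternatives were the edgeR quasi-likelihood test and DESeq2 1.42.0 (both on rounded counts), other scalings, filters, fits and folds, the replicate number as a block, leaving out each library and, added after seeing the data, a fit of Ctrl, TN, PRTN and BUTN only. Figures were drawn with matplotlib 3.10.9.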

Additional observations from a re-analysis of the deposited data

Results flagged for a closer look

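Groups of 2 libraries are too small to test for a library that stands apart, so only differences between treatments under the same TNF-α are listed. They came from the tests of PRTN vs BUTN, TNPR vs TNBU, TNPR vs PRTN and TNBU vs BUTN over the 9 genes and the named pathway genes.

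BIRC3 was lower with TNF-α first than with the SCFA first, by limma-voom with a log2 fold change of -0.72 in TNPR vs PRTN (adjusted p 0.00273) and of -0.72 in TNBU vs BUTN (adjusted p 0.00207), in 2 of 2 libraries each. TNFAIP3 was lower in TNBU than in BUTN, with a log2 fold change of -0.69 (adjusted p 0.000137). Its mean was also lower in TNPR than in PRTN, at 156 against 220.5 CPM, without a call. BIRC7 was lower in PRTN than in BUTN, with a log2 fold change of -0.82 (adjusted p 0.0159), at doses of 15 and 3 mM. The mean of BIRC7 was also lower in TNPR than in TNBU, at 29.8 against 39.8 CPM, without a call.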

How the results depend on the processing

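Over the 9 genes, 2394 log2 fold changes were recomputed under 23 alternatives, 12 of which leave out 1 library. Direction and call held in 2304, and a call was lost in 25 and gained in 12. A further 53 uncalled values changed sign, none with a call on either side. The reported value furthest from 0 among these was -0.22, for XIAP in TNBU vs BUTN. The replicate number as a block changed no call, with 2, 5, 4, 5 and 5 of the 9 genes called in TN vs Ctrl and in PRTN, BUTN, TNPR and TNBU vs TN. Whether the numbers pair the libraries was left undecided. Deviations of same-numbered libraries correlated from -0.0514 to 0.130 over 15 pairs of groups, 1 of them over 0.1. Such low values cannot exclude a shift shared by same-numbered libraries in part of the genes. In both TNPR and TNBU, replicate 1 was above replicate 2 for BIRC2, BIRC3, XIAP, CASP8 and TNFRSF10B, and below it for CFLAR and FAS. For TNFRSF10A and FADD these groups differed in direction. Calls that rest on 1 library are given beside the results; a lone library left in a group was assumed to vary like the others. The cause of the changes was not tested.

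In TN vs Ctrl, 2 of the 9 genes were called, but 1 with library size alone, with only the libraries of the 2 groups compared and with a fold over 2, 5 with no fold threshold, and 1 to 2 without 1 library. The 2 pathway genes called there became 1 with library size alone and with a fold over 2, and 4 with no fold threshold and with the fit of Ctrl, TN, PRTN and BUTN only, and 1 to 4 without 1 library. With no fold threshold the genes called against TN were 8 for BUTN, 9 for TNPR and 8 for TNBU, and 8 of 9 in each SCFA group against Ctrl, and the pathway genes called were 25 in PRTN, 26 in BUTN and 24 in TNBU vs TN. With a fold over 2 they were 3 in PRTN, 3 in TNPR and 3 in TNBU vs TN, 2 in PRTN, 3 in BUTN and 3 in TNBU vs Ctrl, and 8 pathway genes in TNPR vs TN. Most genes moved in the contrasts of SCFA groups with TN or Ctrl. At an unadjusted p under 0.05 by limma-voom, 31.3% to 34.1% of all tested genes were higher there and 27.1% to 27.9% lower. The shares of all genes called with no fold threshold or with a fold over 2 are not given here. The 1 gene called in TNPR vs PRTN became 0 with a fold over 2, and 0 to 1 without 1 library. The 1 gene called in TNBU vs BUTN became 0 with a fold over 2 and with only the 2 groups, and 0 to 1 without 1 library. With library size alone 28 genes were higher and 33 lower in TNBU vs BUTN, against 23 and 42.

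The sign of uncalled values changed as follows. With DESeq2, FADD was -0.0023 in PRTN vs BUTN, and TNFRSF10B -0.013 and FADD -0.0093 in TNPR vs TNBU, and with relative log expression size factors the values were -0.0025, -0.013 and -0.0098. With library size alone, BIRC2 was 0.043 in PRTN and 0.0093 in TNBU vs TN, CASP10 0.078 and 0.052 in the same contrasts, TNFRSF10B 0.0041 in TNPR and 0.024 in TNBU vs Ctrl and -0.020 in TNPR vs TNBU, and FADD -0.016 in TNPR vs TNBU and 0.023 in TNBU vs BUTN. Without the filter, TNFRSF10A was 0.0049 in TNPR vs TNBU. With only the 2 groups, BIRC5 was 0.0031 in TN vs Ctrl, and with the 4-group fit FADD was -0.0089 in PRTN vs BUTN.

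Without 1 library, CASP8 ranged from -0.027 to 0.24, BIRC5 from -0.053 to 0.030 and FAIM from -0.078 to 0.043 in TN vs Ctrl. In PRTN vs BUTN, TNFRSF10A ranged from -0.17 to 0.050 and FADD from -0.029 to 0.011. In TNPR vs TNBU, TNFRSF10B ranged from -0.059 to 0.024, FADD from -0.063 to 0.033, BIRC2 from -0.23 to 0.059, XIAP from -0.42 to 0.084 and TNFRSF10A from -0.29 to 0.23. In TNPR vs PRTN, CASP8 ranged from -0.063 to 0.058 and FADD from -0.085 to 0.0096. In TNBU vs BUTN, XIAP ranged from -0.48 to 0.022, TNFRSF10A from -0.45 to 0.077 and CASP8 from -0.24 to 0.12. TNFRSF10D in TNPR vs TN ranged from -0.080 to 0.29, and CASP10 in TNBU vs TN from -0.43 to 0.083.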
